A study of Mus musculus with 6 samples.

Results

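Vascular smooth muscle cells of the mouse kidney were followed from uninjured kidneys through day 2 and day 10 of unilateral ureteric obstruction (UUO), the tying off of a ureter. They were taken as the wells of a mesenchyme sorting gate with at least 10000 CPM of Acta2 (reads of a gene scaled so that all gene reads of a well come to the same total) and at least 500 CPM of Myh11. Wells with 300 CPM or more of Col1a1, 200 CPM or more of Ren1, or 300 CPM or more of Casq2, Ephx3, Higd1b and Lamc3 together were left to fibroblasts, renin cells and pericytes. The wells were chosen by these 8 genes, which are therefore described without a test. The selection found 445 wells of 1106 mesenchyme-gate wells and of 2235 wells in all. Each of 6 plates of Smart-seq2 libraries, which read whole transcripts of a single cell, mixed cells of 3 mice, which were 1 mouse at day 2 of UUO, 1 mouse at day 10 of UUO and 1 healthy mouse. The labels give the tissue as kidney and give no strain, sex, age or genotype, although the count tables hold an eGFP row (207 to 658 CPM in the sums of these wells). Reads were summed per condition and per number of the plate layout (1 to 4), which gave 4 sums a condition of 10 to 68 wells and 3797010 to 22674807 reads. Number 1 covers plates 1 and 2, number 2 plate 3, number 3 plate 4 and number 4 plates 5 and 6. Whether a number marks a mouse is not stated in the labels, so p-values measure the spread between these sums. In every plate a condition fills its own columns of wells, so condition and plate position cannot be told apart.

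Smooth muscle cells of the arterial media contract through myosin that is switched on by calcium and by kinases downstream of constrictor receptors, and they relax through cyclic nucleotides. In renal arterioles this sets blood flow to the glomerulus. After vessel injury such cells are known to lower contractile genes and to make matrix and secreted proteins. The cytokines oncostatin M and interleukin-6 act on them through the shared receptor chain gp130 and the transcription factor STAT3, which drives acute phase genes in liver.

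The wells carried smooth muscle genes that the selection did not use. Tagln (transgelin) and Mylk (myosin light chain kinase) reached 10 CPM in all 156 day 2 wells, all 95 day 10 wells and all 194 healthy wells. Cnn1 (calponin) did so in 137 day 2, 88 day 10 and 174 healthy wells. Actg2, the actin of visceral smooth muscle, was at 10 CPM in 1 day 2 well, 0 day 10 wells and 2 healthy wells. The 10 endothelial markers summed to 48.7 to 101 CPM at day 2, 19.7 to 144 CPM at day 10 and 26.8 to 86.0 CPM in healthy sums, and 10 fibroblast markers to 115 to 259, 211 to 271 and 97.6 to 298 CPM. The 9 leukocyte markers summed to 72.6 to 251 CPM at day 2, 88.3 to 1020 CPM at day 10 and 31.1 to 213 CPM in healthy sums, and the part of such RNA in the results that follow was not tested. Mesangial markers overlap with smooth muscle ones, and the 8 on the list summed to 2050 to 2580 CPM at day 2, 2810 to 3140 CPM at day 10 and 1630 to 1870 CPM in healthy sums. Of the 6 of them tested at day 10 against healthy sums, Serpine2 alone passed and 4 had a negative sign (median -0.054 log2). The 8 pericyte markers on their list summed to 2140 to 2840 CPM at day 2 and 1890 to 2730 CPM at day 10. In healthy sums they stood at 1890 to 2250 CPM. The sums of the other mesenchyme-gate wells held 1660 to 2310, 1210 to 1790 and 1950 to 2950 CPM in the same order. The median well held 393840 reads and 3643 genes at day 2, 374281 reads and 3554 genes at day 10, and 354228 reads and 3475 genes in healthy kidneys.

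The selection kept 156 of 366 mesenchyme-gate wells at day 2 (42.6%), 95 of 376 at day 10 (25.3%) and 194 of 364 healthy wells (53.3%). Those shares are a description, since they depend on genes whose own levels differ between conditions. Ren1 was the only criterion failed by 17 wells at day 2, 42 at day 10 and 11 in healthy kidneys. At the thresholds, the nearest well inside had 10337 CPM of Acta2 and the nearest outside 9563 CPM. For Ren1 these were 188.6 and 211 CPM, and for the 4 pericyte genes 298.7 and 301.2 CPM.

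Acta2, the smooth muscle actin, stood at 30390, 32670, 31660 and 28060 CPM in the day 2 sums, at 33120, 26030, 30120 and 27120 CPM in the day 10 sums and at 37160, 32790, 40470 and 33290 CPM in the healthy sums. Every day 2 sum lay below every healthy sum, while the day 10 range overlapped the healthy one. Myh11, the smooth muscle myosin heavy chain, stood at 5036, 4898, 4800 and 5038 CPM at day 2, at 4277, 4892, 4954 and 4759 CPM at day 10 and at 7208, 7074, 7065 and 7314 CPM in healthy sums. All obstructed sums lay below all healthy sums. Both genes chose the wells, so their levels are given without a test.

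Day 2 kidneys were set against healthy ones to read the early response. Of 9 acute phase genes tested, from a list of 23, 4 rose, Itih4, Serpina3n and Clu among them. Of 23 oncostatin M and interleukin-6 family genes tested 3 rose, which were the receptor gene Osmr, the transcription factor gene Stat3 and Bcl3. Serpina3n and Bcl3 had 2 reads each in all healthy wells. They passed the filter on low counts through their obstructed levels alone, so these counts lean toward rises. The call was made for 68 of 11866 genes (0.573%), of which 53 were higher (0.447%) and 15 lower (0.126%, Myh11 among them), with edgeR's quasi-likelihood test at a Benjamini-Hochberg adjusted p under 0.05. At day 10, 72 genes passed (0.607%), 57 higher (0.48%) and 15 lower (0.126%, again with Myh11). Myh11 helped to choose the wells, so its own call is not a result, and without the 8 selection genes the counts were 67 at day 2 (14 lower) and 71 at day 10 (14 lower). Both comparisons use the same healthy sums, so they are not independent of each other. The day 2 count was 15 without number 1, 35 without number 2, 23 without number 3 and 22 without number 4, and the day 10 count was 27, 35, 29 and 12 without numbers 1, 2, 3 and 4. Itih4, Serpina3n, Clu, Osmr, Stat3, Fgl2, Kcns3 and Rasl10b passed at both times with any 1 number left out. Of 75 calls on genes and times described here, 27, 41, 25 and 24 held without numbers 1, 2, 3 and 4.

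RNA of tubule cells moved with the condition in these wells. The 12 tubule transcripts on the list summed to 175 to 551 CPM at day 2, 1.7 to 35.8 CPM at day 10 and 366 to 1840 CPM in healthy sums, with Lrp2, Havcr1 and Miox at 0 at day 10. At least 100 CPM of them was found in 85 of 156 day 2 wells, 3 of 95 day 10 wells and 116 of 194 healthy wells. Without those wells, 4 genes passed at day 2 (Serpina3n, Kcns3, Cd63 and Sparcl1, all higher) and 3 at day 10 (Serpina3n, Kcns3 and Sparcl1), from sums that then held as few as 5 wells and lacked healthy number 3. The 20 genes of largest change at day 2 kept their direction there, as did the 17 at day 10 other than the tubule transcripts Fxyd2, Kap and Gpx3. Their changes were 0.626 to 1.96 times those with all wells at day 2 and 0.751 to 1.44 times at day 10.

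Itih4 (chromosome 14, 30886476 to 30901986 of mm10), an inter-alpha-trypsin inhibitor heavy chain that liver secretes in the acute phase, was among the genes of largest change at both times. It stood at 1403, 1550, 2059 and 1279 CPM in the day 2 sums, at 1689, 1550, 1392 and 2573 CPM in the day 10 sums and at 7.26, 47.1, 5.87 and 31.7 CPM in the healthy sums (all scaled with TMM, as are the levels of tested genes that follow). The obstructed and healthy sums did not overlap. The log2 change was 6.44 ± 0.63 at day 2 (SE; edgeR adjusted p = 0.0010) and 6.56 ± 0.62 at day 10 (adjusted p = 0.0013), and it passed with any 1 number left out. Without the wells that held tubule transcripts the change was 5.33 at day 2 and 5.47 at day 10, and neither passed (adjusted p = 0.585 and 0.637). Itih4 is also among the names given as markers of these cells, although 13 of 194 healthy wells reached 10 CPM of it.

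**Figure D1:**
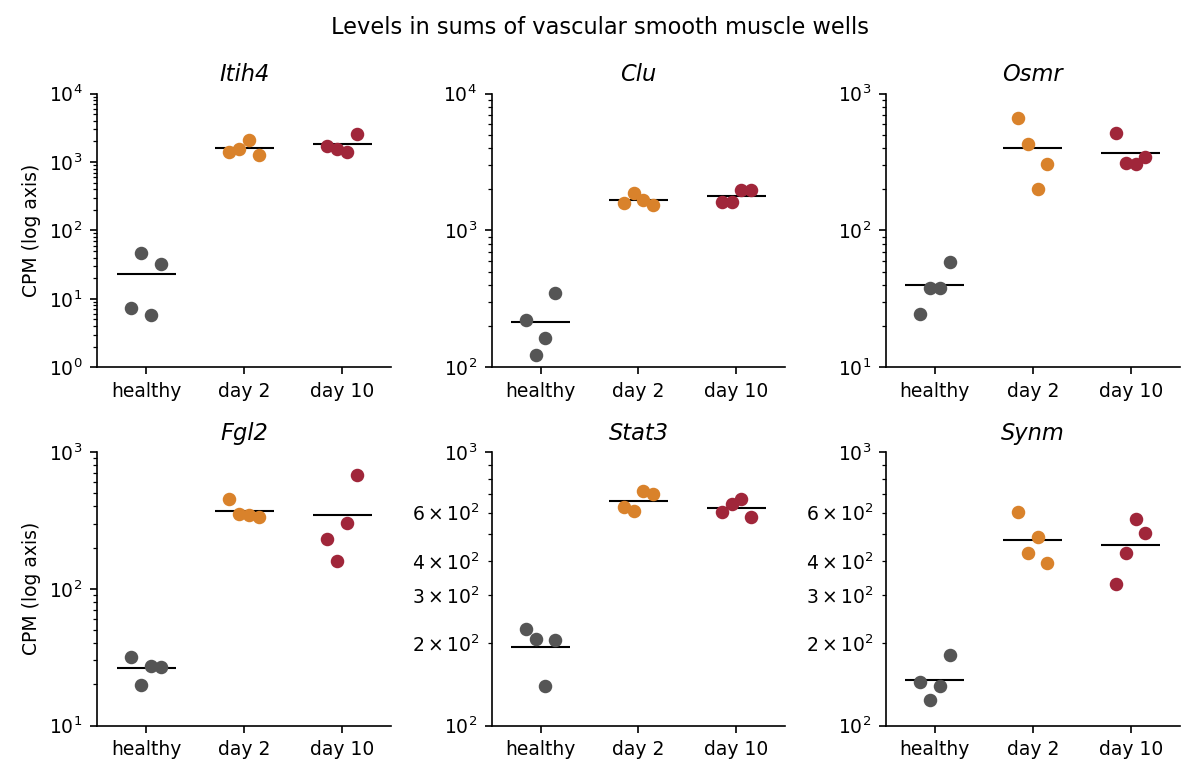
CPM (log axis) of 6 genes in sums of vascular smooth muscle wells, with 1 point per layout number and a line at the mean of 4 sums, for healthy, day 2 and day 10 kidneys. For each gene shown, every day 2 and day 10 point lies above every healthy point.

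Serpina3n (chromosome 12, 104406646 to 104414334), a secreted inhibitor of serine proteases, was all but absent from healthy wells. It stood at 231, 331, 298 and 482 CPM at day 2, at 382, 157, 261 and 557 CPM at day 10, and the healthy sums held 2 reads in all, both in number 4. A fold change has no firm base there, and the adjusted p was 2.05e-06 at day 2 and 2.16e-06 at day 10. Serpina3 genes are similar in sequence and can share reads.

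Clu (clusterin, a secreted chaperone, chromosome 14, 65968483 to 65981548) stood at 1588, 1873, 1676 and 1542 CPM at day 2, at 1618, 1618, 1980 and 1969 CPM at day 10 and at 222, 123, 164 and 349 CPM in healthy sums. It rose by 3.04 ± 0.26 at day 2 (adjusted p = 0.00057) and 3.13 ± 0.26 at day 10 (adjusted p = 0.00035). Serping1, the inhibitor of complement C1, averaged 1068 ± 105 CPM at day 2, 1099 ± 253 CPM at day 10 and 598 ± 94.0 CPM in healthy sums (SD, n = 4 sums each). It rose by 0.85 ± 0.15 (adjusted p = 0.035) and 0.87 ± 0.15 (adjusted p = 0.031), but failed the test with any 1 number left out (adjusted p = 0.057 to 0.365 at day 2 and 0.097 to 0.251 at day 10).

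The list of acute phase proteins held 23 genes, of which 9 had enough reads to be tested. At each time Itih4, Serpina3n, Clu and Serping1 rose, none fell and 5 failed the test. Of all genes tested, 0.573% passed at day 2 and 0.607% at day 10. Over the 9 tested the median was 4.37 at day 2 and 3.13 at day 10 (log2, also with the genes of at most 3 healthy reads set at 3 reads), beside -0.004 and -0.099 over all genes tested. Of the 9 genes, 2 had at most 3 healthy reads, Serpina3n among them, and passed the filter on low counts through their obstructed levels alone. This count and median therefore lean toward rises.

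In the oncostatin M and interleukin-6 pathway, the receptor Osmr and the factors Stat3 and Bcl3 rose, and the ligand Osm was not detected. Osmr, the ligand-specific receptor chain (chromosome 15, 6813568 to 6874968), stood at 665, 429, 200 and 307 CPM at day 2, at 516, 311, 305 and 344 CPM at day 10 and at 24.4, 37.6, 37.7 and 58.4 CPM in healthy sums. No obstructed sum reached down to the healthy range. It rose by 3.23 ± 0.37 (adjusted p = 0.0030) at day 2 and by 3.16 ± 0.37 (adjusted p = 0.0033) at day 10. Osm itself had 0 reads among 59648657 gene reads at day 2, 33914082 at day 10 and 66888928 in healthy wells. Il6, the interleukin-6 gene, had 2344 reads in 8 wells at day 2, 402 reads in 5 wells at day 10 and 415 reads in 3 healthy wells.

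Stat3, the transcription factor below the receptor (chromosome 11, 100886806 to 100939594), stood at 628, 606, 718 and 703 CPM at day 2, at 601, 647, 672 and 579 CPM at day 10 and at 225, 207, 139 and 206 CPM in healthy sums. Every obstructed sum lay far above every healthy sum. It rose by 1.78 ± 0.17 (adjusted p = 0.0010) and 1.69 ± 0.17 (adjusted p = 0.0015). Bcl3, a nuclear IkB-like cofactor, stood at 7.83 to 60.7 CPM at day 2 and 9.08 to 76.6 CPM at day 10, with 2 reads in all healthy wells (adjusted p = 0.0075 and 0.0048). With 1 number left out, Bcl3 passed in 2 of 4 cases at day 2 and in 1 of 4 at day 10.

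Il6st, which encodes gp130, averaged 580 ± 172 CPM at day 2, 441 ± 152 CPM at day 10 and 181 ± 56.7 CPM in healthy sums, and did not pass (adjusted p = 0.051 and 0.141). Lifr, the receptor chain for leukaemia inhibitory factor, averaged 299 ± 87.3, 280 ± 124 and 347 ± 92.9 CPM in the same order. Socs3, the feedback inhibitor of the pathway, averaged 498 ± 177 CPM at day 2, 790 ± 501 CPM at day 10 and 227 ± 124 CPM in healthy sums (adjusted p = 0.652 and 0.263). Of 23 list genes tested, 3 rose and 0 fell at each time while 20 failed the test, with a median of 0.59 log2 at day 2 and 1.12 log2 at day 10. Over all genes tested, 0.573% passed at day 2 and 0.607% at day 10. Bcl3, with 2 healthy reads, passed the filter on low counts through its obstructed levels alone, so this count and median lean toward rises.

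Of 9 complement genes tested from a list of 13, 3 rose at each time, C4b and Serping1 among them, and none fell, with a median change of 1.17 at day 2 and 0.88 at day 10. Over all genes tested, 0.573% passed at day 2 and 0.607% at day 10. The filter on low counts let C4b in through its obstructed levels alone, so this count and median lean toward rises. C4b, a component of the classical pathway, had 8.27 to 17.1 CPM at day 2, 4.69 to 15.2 CPM at day 10 and 1 read in all healthy wells (adjusted p = 0.022 and 0.029), and its calls were lost with any 1 number left out (adjusted p = 0.132 to 0.236 at day 2 and 0.136 to 0.261 at day 10). C1s1, the protease of the C1 complex, averaged 771 ± 98.0, 749 ± 79.3 and 457 ± 88.6 CPM at day 2, at day 10 and in healthy sums and did not pass (adjusted p = 0.062 and 0.076).

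Fgl2, a fibrinogen-like secreted protein (chromosome 5, 21372673 to 21378386), stood at 455, 350, 348 and 335 CPM at day 2, at 230, 160, 305 and 682 CPM at day 10 and at 31.5, 19.9, 27.2 and 26.9 CPM in healthy sums. The groups did not overlap, and the change was 3.85 ± 0.35 (adjusted p = 0.00089) at day 2 and 3.58 ± 0.35 (adjusted p = 0.0015) at day 10. Tnfrsf1a, the main receptor for tumour necrosis factor, averaged 388 ± 122 CPM at day 2, 339 ± 51.6 CPM at day 10 and 137 ± 21.6 CPM in healthy sums (adjusted p = 0.0075 and 0.012). It was the member called among 11 NF-kB and chemokine genes tested, while Ccl2 had 19 reads at day 2 and 0 at day 10 and in healthy wells. Of all genes tested, 0.573% and 0.607% were called at the 2 times. With 1 number left out, Tnfrsf1a passed in 1 of 4 cases at each time (adjusted p up to 0.112 and 0.174). Of 22 interferon response genes tested, 0 passed at either time with edgeR, 1 at day 2 and 2 at day 10 had an unadjusted p under 0.05, and DESeq2 called 1 and 0. Among all 11866 genes tested, 7.66% and 9.84% had such an unadjusted p, and DESeq2 called 395 and 569.

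STAT factors bind a palindrome of the form TTCNNNGAA, and the 300 bases around the start of each gene (250 before to 50 after, RefSeq, GRCm38.p6) were searched for it. Of the 53 genes higher at day 2, 41 had an entry, and 7 of these held the letters (17.1%): Fgl2, Ifitm3, Itih4, Pros1, Sbno2, Ssbp4 and Tnfrsf1a. Of the 8962 genes tested that had an entry, 8.21% held them, and of all 32851 promoters 8.3%. Those counts are a description with no test, a match is not shown to be a bound site, and the palindrome reads the same on both strands. The promoters of Itih4, Fgl2 and Sbno2 are shown as examples with the matched letters in capitals, and positions in the other matching genes were not compared. In Itih4 (chr14:30886226-30886525, plus strand) the first matched base lay 51 bases before the start, in Fgl2 (chr5:21372423-21372722, plus strand) 36 bases before it and in Sbno2 (chr10:80102653-80102952, minus strand) 26 bases before it.
Itih4: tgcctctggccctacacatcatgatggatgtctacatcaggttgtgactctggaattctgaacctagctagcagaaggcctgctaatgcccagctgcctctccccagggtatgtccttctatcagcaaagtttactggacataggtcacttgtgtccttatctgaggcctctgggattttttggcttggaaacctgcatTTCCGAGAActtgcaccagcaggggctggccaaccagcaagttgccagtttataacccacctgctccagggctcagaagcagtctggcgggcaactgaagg
Fgl2: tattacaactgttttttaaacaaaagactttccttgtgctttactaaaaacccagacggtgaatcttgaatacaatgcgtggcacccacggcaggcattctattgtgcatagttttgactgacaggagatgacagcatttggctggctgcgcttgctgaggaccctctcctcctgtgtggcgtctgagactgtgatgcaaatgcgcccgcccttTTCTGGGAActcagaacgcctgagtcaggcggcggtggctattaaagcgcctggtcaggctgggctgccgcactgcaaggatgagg
Sbno2: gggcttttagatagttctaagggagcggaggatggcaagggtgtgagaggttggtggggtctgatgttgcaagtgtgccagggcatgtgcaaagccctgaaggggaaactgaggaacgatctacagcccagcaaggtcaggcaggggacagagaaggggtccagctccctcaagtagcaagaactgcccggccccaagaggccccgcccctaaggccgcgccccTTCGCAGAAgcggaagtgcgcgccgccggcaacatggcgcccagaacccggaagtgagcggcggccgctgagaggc
Sbno2, a helicase-like nuclear cofactor shown here for its match, averaged 149 ± 47.1 CPM at day 2, 159 ± 54.5 CPM at day 10 and 24.1 ± 17.0 CPM in healthy sums (adjusted p = 0.018 and 0.015). Of the other Sbno2 entries, 1 holds a match that starts 24 bases before its start and 1 (chr10:80075390-80075689) holds none. The entries for Serpina3n and Osmr hold no match in this window.

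Other genes of large change encode a channel, small signalling proteins and protease inhibitors. Kcns3, a silent subunit that modifies voltage-gated potassium channels, stood at 68.2, 18.6, 19.7 and 91.2 CPM at day 2, at 127, 58.2, 95.4 and 159 CPM at day 10 and at 1 read in all healthy wells (adjusted p = 4.29e-05 and 1.57e-05). It reached 10 CPM in 24 of 156 day 2 wells, 27 of 95 day 10 wells and 0 of 194 healthy wells. Rasl10b, a Ras-like GTPase, averaged 81.1 ± 45.6 CPM at day 2, 69.9 ± 42.1 CPM at day 10 and 4.93 ± 3.95 CPM in healthy sums (adjusted p = 0.0010 and 0.0015). Shroom3, which binds actin and shapes epithelia, averaged 35.8 ± 10.5, 34.9 ± 27.8 and 0.178 ± 0.296 CPM in the same order (adjusted p = 0.023 and 0.030). With 1 number left out, Shroom3 passed in 1 of 4 cases at each time (adjusted p up to 0.221 and 0.277).

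The gene for the metalloproteinase inhibitor TIMP1, Timp1, averaged 58.6 ± 24.1 CPM at day 2, 43.4 ± 28.0 CPM at day 10 and 2.01 ± 3.11 CPM in healthy sums (edgeR adjusted p of 0.022 and 0.034). It passed at day 2 without number 4 (adjusted p = 0.031) but not without any of the others, and at day 10 it failed without any 1 number (adjusted p up to 0.162 and 0.196). Esr1, the oestrogen receptor alpha, averaged 54.2 ± 25.1 CPM at day 2, 108 ± 43.1 CPM at day 10 and 7.75 ± 5.26 CPM in healthy sums, and passed at day 10 (adjusted p = 0.018, up to 0.185 with a number left out) but not at day 2 (adjusted p = 0.064). Scara3, a scavenger receptor-like protein, stood at 35.0, 24.6, 63.8 and 107 CPM at day 10 and at 0, 0, 0 and 6.51 CPM in healthy sums (adjusted p = 0.038, and 0.152 to 0.207 with a number left out). It was at 0.0742, 0, 0.681 and 9.65 CPM at day 2 and did not pass (adjusted p = 0.926). Nr2f2 (COUP-TFII), a nuclear receptor of veins and mesenchyme, rose by 0.98 ± 0.15 at day 2 and 1.16 ± 0.15 at day 10 (adjusted p = 0.014 and 0.0057). With 1 number left out, Nr2f2 failed in every case at day 2 (adjusted p = 0.083 to 0.163) and passed in 1 of 4 at day 10.

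**Figure D2:**
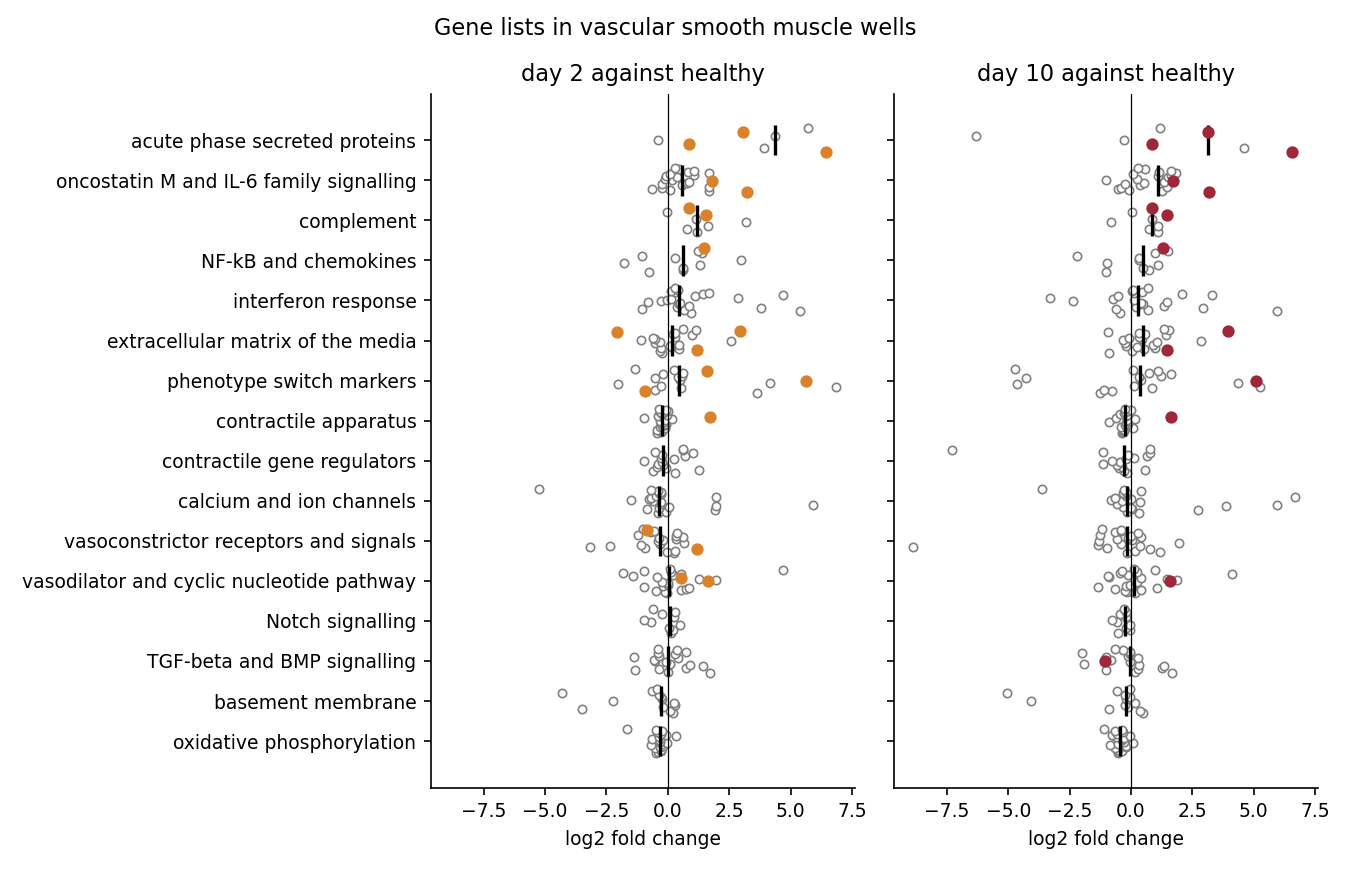
Log2 fold changes of the tested genes on 16 lists at day 2 and at day 10 against healthy kidneys, with 1 circle per gene, filled where it passed, and a bar at the list's median. Left out as circles were 5 genes with at most 3 healthy reads (Avpr1a, Bcl3, C4b, Lcn2 and Serpina3n). Filled circles lie to the right in the acute phase, oncostatin M and complement lists, and 1 gene of the contractile list, 0 of the channel list and 0 of the Notch list are filled.

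Among contractile apparatus genes 1 rose (Synm), 0 fell and 23 did not pass at each time. Over all genes tested, 0.573% passed at day 2 and 0.607% at day 10. Of 24 genes tested besides the selection genes, 21 had a negative sign at day 2 and 20 at day 10, with a median of -0.24 and -0.23 log2, beside -0.004 and -0.099 over all genes tested. Tagln averaged 3546 ± 634 CPM at day 2, 3985 ± 838 CPM at day 10 and 4862 ± 1127 CPM in healthy sums (-0.44 ± 0.10 and -0.28 ± 0.10, adjusted p = 0.111 and 0.359). Myl9, a regulatory light chain of myosin, changed by -0.28 ± 0.07 and -0.32 ± 0.07 (adjusted p = 0.168 and 0.101).

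Synpo2 (synaptopodin-2, which bundles actin at the Z-disc), another name given for these cells, stood at 322, 410, 277 and 290 CPM at day 2, at 382, 589, 260 and 436 CPM at day 10 and at 610, 592, 591 and 675 CPM in healthy sums. The day 2 sums lay below the healthy ones. The day 10 sums did so by a narrow gap, and without TMM scaling they overlapped, with day 10 number 2 at 589.8 CPM and healthy number 3 at 578.6 CPM. The change of -0.95 ± 0.18 at day 2 missed the threshold (adjusted p = 0.051), as did -0.62 ± 0.18 at day 10 (adjusted p = 0.225). The day 2 change passed in 7 of 14 other settings, RLE size factors (adjusted p = 0.044) and DESeq2 (adjusted p = 4.26e-05) among them, and its adjusted p ran up to 0.958. The day 10 change passed in 1 of 14, DESeq2 (adjusted p = 0.036). Synpo2 reached 10 CPM in 124 of 156 day 2 wells, 80 of 95 day 10 wells and 174 of 194 healthy wells.

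Synm (synemin, an intermediate filament protein that links desmin to the cell membrane) was the list member that rose. It stood at 604, 427, 490 and 393 CPM at day 2, at 329, 427, 570 and 507 CPM at day 10 and at 144, 124, 139 and 181 CPM in healthy sums, with no overlap. The change was 1.71 ± 0.21 at day 2 (adjusted p = 0.0058) and 1.64 ± 0.21 at day 10 (adjusted p = 0.0057). With 1 number left out it passed in 2 of 4 cases at day 2 and in 1 of 4 at day 10 (adjusted p up to 0.063 and 0.077). Des (desmin), a filament partner, averaged 283 ± 15.8 CPM at day 2, 174 ± 43.6 CPM at day 10 and 327 ± 104 CPM in healthy sums and did not pass (adjusted p = 0.093 at day 10).

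**Figure D3:**
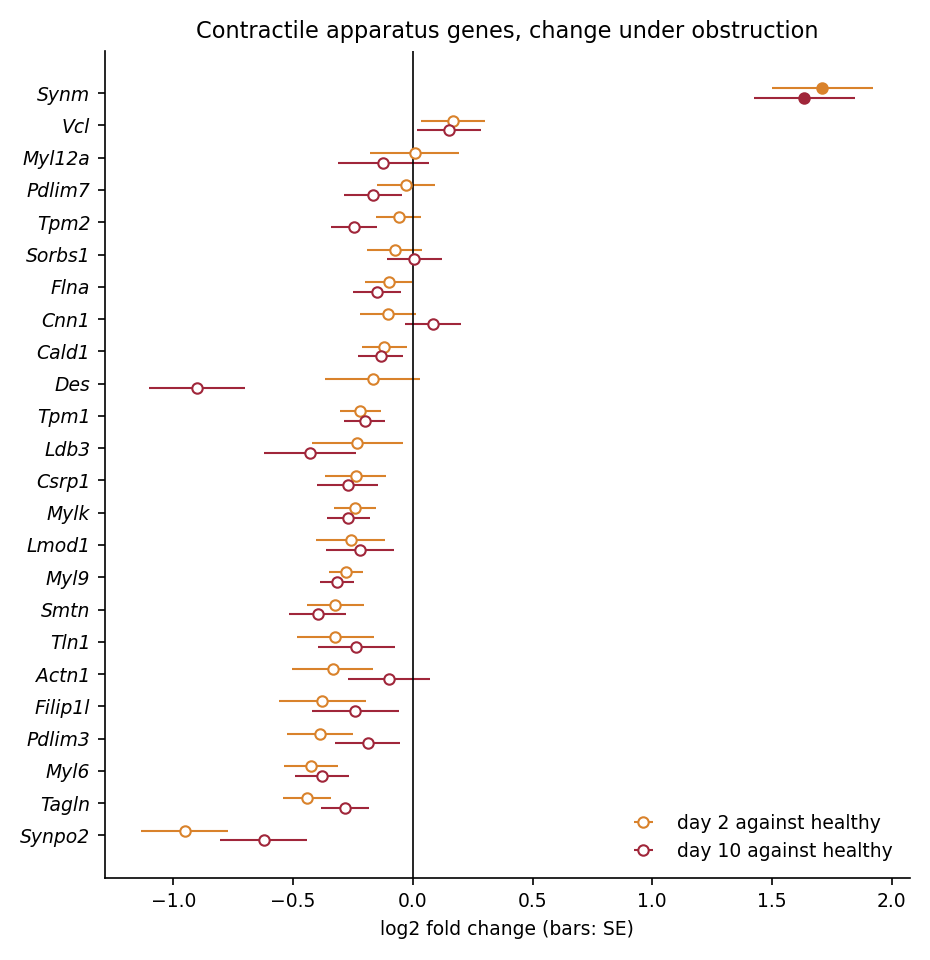
Log2 fold change with its SE for 24 contractile apparatus genes in vascular smooth muscle wells, at day 2 and at day 10 against healthy kidneys, ordered by the day 2 change. Filled points passed the test, which holds for Synm alone, and Synpo2 has the lowest day 2 value.

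Of 17 regulators of contractile genes tested, 0 passed at either time with edgeR, where 5 and 6 had an unadjusted p under 0.05 and DESeq2 called 2 and 1. Myocd (myocardin, the coactivator of serum response factor) averaged 125 ± 38.7 CPM at day 2, 155 ± 44.2 CPM at day 10 and 182 ± 28.6 CPM in healthy sums (adjusted p = 0.310 and 0.728). Of 22 calcium and ion channel genes 0 passed with edgeR, 7 at day 2 and 6 at day 10 had an unadjusted p under 0.05, and DESeq2 called 4 and 3. For 8 RGS regulators the edgeR count was also 0, with 4 and 2 unadjusted and 4 and 2 by DESeq2. For 10 Notch genes it was 0, with 3 and 2 unadjusted and 2 and 0 by DESeq2, and for 13 basement membrane genes 0, with 2 and 3 unadjusted and 2 and 2 by DESeq2. Among all 11866 genes tested, 7.66% at day 2 and 9.84% at day 10 had an unadjusted p under 0.05 with edgeR. DESeq2 called 395 and 569 of the 11866.

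Among 23 genes of constrictor receptors and their signals, Ednrb rose and Ppp1r12a fell at day 2, and at day 10 the edgeR count was 0, with 8 at an unadjusted p under 0.05 and 5 called by DESeq2. Of all genes tested, edgeR called 0.573% at day 2 and 0.607% at day 10. At day 10, 9.84% of all genes tested had an unadjusted p under 0.05, and DESeq2 called 569 of 11866. Ednrb, the endothelin B receptor, stood at 444, 357, 245 and 477 CPM at day 2, at 234, 227, 184 and 546 CPM at day 10 and at 155, 196, 111 and 193 CPM in healthy sums (1.20 ± 0.22 at day 2, adjusted p = 0.035). Endothelium also makes this receptor, and the endothelial markers in these wells are given with the opening values. Ppp1r12a, the targeting subunit of myosin phosphatase, averaged 727 ± 112 CPM at day 2, 963 ± 58.5 CPM at day 10 and 1296 ± 83.4 CPM in healthy sums, and fell by 0.84 on the log2 scale at day 2 (adjusted p = 0.0093). Rock1, the kinase that inhibits this phosphatase, changed by -0.68 ± 0.13 and -0.66 ± 0.13 and did not pass (adjusted p = 0.059 and 0.069). Both calls at day 2 were lost with any 1 number left out (adjusted p up to 0.256 for Ednrb and 0.132 for Ppp1r12a).

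Of 24 genes of the dilator and cyclic nucleotide pathway, 2 rose at day 2 and 1 at day 10. Of all genes tested, 0.573% and 0.607% were called at these times. Pde1a, a phosphodiesterase switched on by calcium and calmodulin, stood at 740, 429, 320 and 483 CPM at day 2, at 689, 294, 352 and 573 CPM at day 10 and at 166, 222, 74.8 and 167 CPM in healthy sums. The groups did not overlap (1.64 ± 0.27 and 1.61 ± 0.27, adjusted p = 0.022 and 0.026), and the call held only without number 2 at each time (adjusted p up to 0.219 and 0.261). Prkar1a, a regulatory subunit of protein kinase A, averaged 3771 ± 179 CPM at day 2, 3401 ± 320 CPM at day 10 and 2577 ± 181 CPM in healthy sums (adjusted p = 0.027 and 0.121), and lost its day 2 call with any number left out (adjusted p up to 0.322).

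In the matrix of the media, 2 of 22 genes tested rose at each time, and 1 fell at day 2 and 0 at day 10. Over all genes tested, 0.573% passed at day 2 and 0.607% at day 10. Crispld2, a secreted cysteine-rich protein, stood at 252, 97.8, 515 and 275 CPM at day 2, at 158, 443, 1433 and 546 CPM at day 10 and at 26.1, 45.1, 37.8 and 23.3 CPM in healthy sums (2.94 ± 0.50 and 3.93 ± 0.52, adjusted p = 0.027 and 0.0063). The day 10 sums spread over the widest range of the 3 conditions. Emilin1, a glycoprotein of elastic fibres, averaged 442 ± 117 CPM at day 2, 551 ± 260 CPM at day 10 and 191 ± 36.6 CPM in healthy sums (adjusted p = 0.028 and 0.0097). With 1 number left out, Emilin1 failed in every case at day 2 and passed in 1 of 4 at day 10. Crispld2 passed in 1 of 4 cases at day 2 and in 2 of 4 at day 10. Ccdc80, a secreted protein that binds matrix, stood at 87.4, 47.5, 51.4 and 113 CPM at day 2, at 193, 255, 80.9 and 123 CPM at day 10 and at 286, 274, 289 and 351 CPM in healthy sums. It fell by 2.06 on the log2 scale at day 2 (adjusted p = 0.025) and did not pass at day 10 (adjusted p = 0.372). The day 2 call of Ccdc80 held in 1 of 4 cases with a number left out.

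Of 18 markers of the phenotype switch tested, from a list of 23, S100a11 and Timp1 rose and Vim fell at day 2, and Timp1 rose at day 10. Over all genes tested, 0.573% passed at day 2 and 0.607% at day 10. Timp1 was at 6.65 CPM in healthy number 4 and at 0.233 to 0.796 CPM in the other healthy sums. It passed the filter on low counts through its obstructed levels, so these counts lean toward rises. S100a11, a calcium-binding protein, averaged 95.1 ± 6.60 CPM at day 2, 66.7 ± 3.72 CPM at day 10 and 31.4 ± 4.86 CPM in healthy sums (adjusted p = 0.015 and 0.091). Vim (vimentin) averaged 1092 ± 264 CPM at day 2, 1272 ± 394 CPM at day 10 and 2081 ± 339 CPM in healthy sums (adjusted p = 0.016 and 0.053). With 1 number left out, the day 2 call of S100a11 was lost in every case (adjusted p = 0.080 to 0.202). That of Vim held in 1 of 4. Spp1 (osteopontin) stood at 280, 361, 258 and 462 CPM at day 2, at 10.7, 13.4, 5.77 and 18.9 CPM at day 10 and at 6.05, 164, 11.6 and 25.7 CPM in healthy sums. All day 2 sums lay above the rest, but the day 2 change of 3.63 ± 0.72 did not pass (adjusted p = 0.060). Without number 2, whose healthy sum is the high one, it was 4.67 and passed (adjusted p = 0.0041), and it did not pass without number 1, 3 or 4. It passed in 5 of 14 settings in all, DESeq2 (adjusted p = 3.19e-08) and sums per plate (adjusted p = 0.014) among them. Sums per plate split numbers 1 and 4, and so may split a mouse.

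The genes that fell at day 2 were fewer and of smaller change. Without number 1, 2, 3 or 4 the count of lower genes was 0, 7, 1 and 1 at day 2. At day 10 it was 5, 4, 3 and 1. Prkcd, protein kinase C delta, stood at 73.3, 92.05, 108 and 74.6 CPM at day 2, at 134, 97.2, 65.5 and 39.0 CPM at day 10 and at 314, 367, 313 and 299 CPM in healthy sums, with no overlap. It fell by 1.89 on the log2 scale at day 2 (adjusted p = 0.016) and by 2.03 at day 10 (adjusted p = 0.012). Grb14, an adaptor that binds the insulin receptor, averaged 174 ± 26.7, 196 ± 24.3 and 381 ± 52.8 CPM at day 2, at day 10 and in healthy sums (adjusted p = 0.012 and 0.026). Uba2, a subunit of the SUMO-activating enzyme, fell at both times (1.02 and 1.00 on the log2 scale in size, adjusted p = 0.011 and 0.010). Cd24a, a surface glycoprotein that tubule cells also make, fell by 1.57 and 1.78 on the log2 scale (adjusted p = 0.027 and 0.014). With any 1 number left out, the calls of Cd24a at both times, Prkcd at day 2 and Uba2 at day 10 were lost. Those of Prkcd at day 10 and of Grb14 and Uba2 at day 2 held in 1 of 4 cases.

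At day 2 the retinol enzyme gene Dhrs3 fell by 1.44, the transcription factor Zfhx3 by 1.20, the growth factor regulator Crim1 by 1.05, the actin-binding palladin gene Palld by 1.03 and the tetraspanin-like Tm4sf1 by 0.99 on the log2 scale (adjusted p from 0.012 to 0.040). At day 10 these 5 had changes of -0.85, -0.77, -0.84, -0.73 and -0.66 and did not pass (adjusted p = 0.263, 0.091, 0.085, 0.109 and 0.098). Dusp6, a phosphatase of ERK, fell by 1.74, Fam81a by 1.10, the Rap activator Rasgrp2 by 1.07 and Id1, a target of BMP signalling, by 1.07 at day 10 (adjusted p = 0.032, 0.031, 0.045 and 0.0072). At day 2 they changed by -1.14, -0.93, -0.62 and -0.50 and did not pass. The calls of Dhrs3, Crim1, Dusp6, Fam81a and Rasgrp2 were lost with any 1 number left out. Those of Zfhx3, Palld, Tm4sf1 and Id1 held in 1 of 4 cases. The day 10 falls of greatest size were those of the tubule transcripts Fxyd2, Kap, Slc34a1 and Gpx3, of which Slc34a1 was lower in 3 of 4 numbers.

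Serpine2, Igfbp7 and Angpt2 encode secreted proteins and passed at day 10 but not at day 2. Serpine2 (protease nexin 1, also a mesangial marker) stood at 1255, 1656, 996 and 1169 CPM at day 2, at 2091, 1938, 2444 and 1861 CPM at day 10 and at 786, 674, 873 and 731 CPM in healthy sums (adjusted p = 0.116 and 0.0033). Every day 10 sum lay above every day 2 sum, and every day 2 sum above every healthy sum. Igfbp7, a secreted binder of insulin-like growth factors, averaged 4012 ± 590 CPM at day 2, 4647 ± 1032 CPM at day 10 and 2671 ± 183 CPM in healthy sums (adjusted p = 0.079 and 0.017). With 1 number left out, the day 10 call held in 3 of 4 cases for Serpine2 and in 1 of 4 for Igfbp7. Angpt2, the angiopoietin that blocks Tie2, averaged 173 ± 45.3 CPM at day 2, 379 ± 97.3 CPM at day 10 and 125 ± 29.3 CPM in healthy sums (adjusted p = 0.652 and 0.0074). Whether the day 10 change differed from the day 2 change was tested directly, and of 11866 genes 1 passed (0.00843%) and 657 had an unadjusted p under 0.05.

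That gene was Gpx3, the secreted glutathione peroxidase, which proximal tubule cells make in quantity. It stood at 0.892, 0.0885, 1.93 and 1.57 CPM at day 10 and at 158, 134, 282 and 415 CPM at day 2 (-8.08 ± 0.51, adjusted p = 0.00012), with 120, 27.1, 279 and 233 CPM in healthy sums. The summed tubule transcripts, of which it is one, stood at 1.7 to 35.8 CPM at day 10 and 175 to 551 CPM at day 2. Without the wells that held 100 CPM or more of them the change of Gpx3 was -3.98 and the call was lost (adjusted p = 1.00). Between day 2 and healthy sums Gpx3 changed by 0.91 ± 0.36 and did not pass (adjusted p = 0.547), while the summed tubule transcripts were lower at day 2 in every number. Of 22 nuclear oxidative phosphorylation genes 0 passed against healthy kidneys with edgeR, 6 at day 2 and 10 at day 10 had an unadjusted p under 0.05, and DESeq2 called 3 and 5. Their signs were negative for 21 of 22 at each time (median -0.31 and -0.46, adjusted p of Atp5b, a subunit of ATP synthase, 0.183 and 0.058). Among all 11866 genes tested, 7.66% at day 2 and 9.84% at day 10 had an unadjusted p under 0.05, and DESeq2 called 395 and 569. Summed immediate early genes, which rise with tissue digestion, stood at 29400 to 43800 CPM at day 2, 20900 to 50400 CPM at day 10 and 25800 to 43400 CPM in healthy sums.

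Single wells showed how widely the response was spread. Itih4 reached 10 CPM in 114 of 156 day 2 wells, 80 of 95 day 10 wells and 13 of 194 healthy wells. Per number the share was 65.5% to 80.4% at day 2, 75.8% to all wells at day 10 and 2.94% to 11.7% in healthy kidneys, and the ranges of obstructed and healthy kidneys did not overlap. In endothelia-gate wells, of median depth 386018, 447221 and 353766 reads, it was at 10 CPM in about 1% at day 2 and day 10. Among positive wells the median level was 1321 CPM at day 2, 1199 CPM at day 10 and 98.9 CPM in healthy kidneys, so both the share and the level per positive well were higher under obstruction. The positive and negative wells had median depths of 393840 and 391200 reads at day 2 and 381288 and 329477 reads at day 10. Their median Acta2 level was 28494 and 32408 CPM at day 2 and 28482 and 31465 CPM at day 10.

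**Figure D4:**
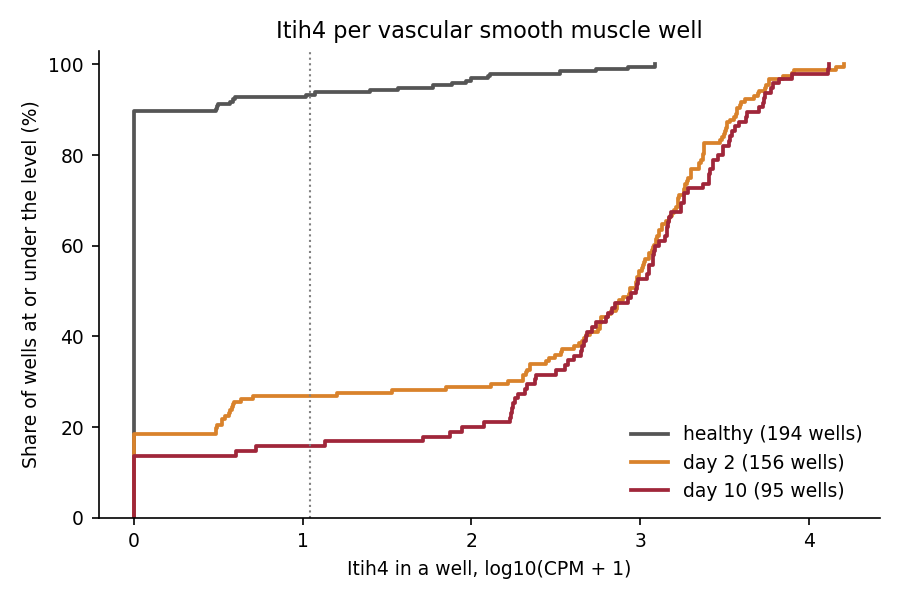
Cumulative share of vascular smooth muscle wells by their Itih4 level, log10(CPM + 1), with 194 healthy, 156 day 2 and 95 day 10 wells, and a dotted line at 10 CPM. The healthy curve starts near the top, and the curves of both obstructed groups start low and lie close to each other at the upper levels.

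Serpina3n reached 10 CPM in 46.8% of day 2 wells and 48.4% of day 10 wells, and Osmr in 77.6% and 76.8%, against 18.0% of healthy wells for Osmr. Of 8 genes of large change (Itih4, Serpina3n, Clu, Osmr, Fgl2, Timp1, Rasl10b and Crispld2), a median well held 5 at 10 CPM or more at day 2, 5 at day 10 and 1 in healthy kidneys. At least 4 were held by 122 of 156 day 2 wells (78.2%), 75 of 95 day 10 wells (78.9%) and 1 of 194 healthy wells (0.52%). These 8 were picked for their change, so the counts describe how they are spread over wells and test nothing. Across the 156 day 2 wells and, apart from them, the 95 day 10 wells, Spearman's rho lay between -0.29 and 0.36 over 182 pairs of 14 genes (these 8 with Kcns3, Esr1, Spp1, Acta2, Myh11 and Synpo2), and such wells share plates and depth. Acta2 and Myh11 chose the wells, so rho with either comes from values that the selection cut. The lowest rho was that of Esr1 with Acta2 at day 2.

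The rest of the mesenchyme gate was compared by asking whether the change under obstruction differed. For the day 2 change 0 of 14320 genes passed (0.0%, edgeR), and 5.12% had an unadjusted p under 0.05. For Itih4 the difference of the day 2 change was -0.57 ± 1.07 and of the day 10 change -1.30 ± 1.08 (log2; adjusted p = 1 and 0.832). A p that misses the threshold does not show that the cells respond alike. In pooled wells, Itih4 stood at 1518 CPM at day 2, 1844 CPM at day 10 and 22.5 CPM in healthy smooth muscle wells. It stood at 946, 1415 and 7.79 CPM in renin wells, at 287, 378 and 3.52 CPM in pericyte wells, at 68.6, 114 and 0.203 CPM in fibroblast wells and at 0.872, 0.981 and 0.234 CPM in endothelia-gate wells, always in the order day 2, day 10, healthy. Osmr was at 392 and 380 CPM at day 2 and day 10 in smooth muscle wells, at 448 and 368 CPM in pericyte wells and at 696 and 564 CPM in fibroblast wells.

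**Figure D5:**
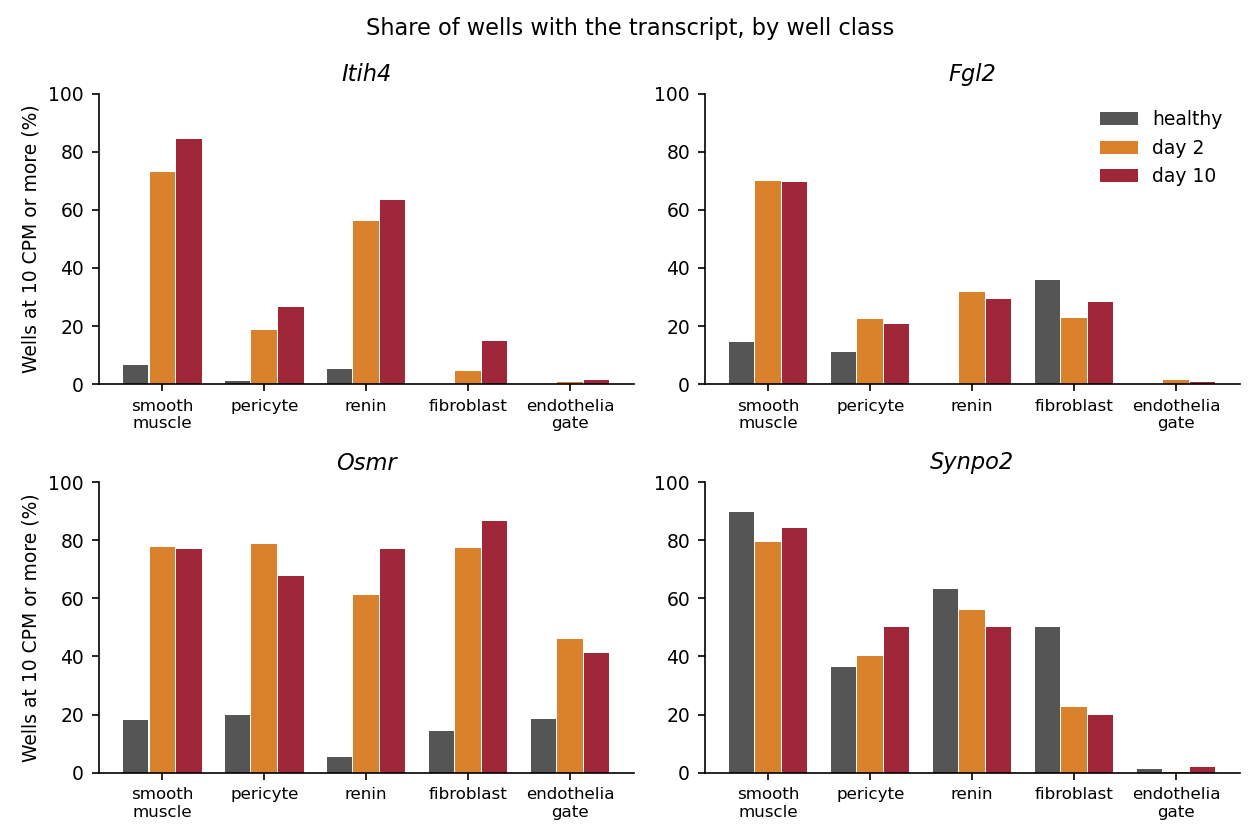
Share of wells at 10 CPM or more of Itih4, Fgl2, Osmr and Synpo2 in vascular smooth muscle wells, pericyte, renin and fibroblast wells of the same gate and endothelia-gate wells, for healthy, day 2 and day 10 kidneys. Osmr shares are higher at day 2 and day 10 than in healthy wells of each class, Itih4 has its highest obstructed shares in smooth muscle and then renin wells, and no test is attached to these shares.

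For the day 10 change 5 of 14320 genes passed (0.0349%), with Pdpn, Angpt2, Cpe and Cst3 higher in the difference and Gpx3 lower. Gpx3 is on the tubule list. In the other wells that list summed to 700 to 2950 CPM at day 10 and 384 to 3620 CPM in healthy sums. In smooth muscle sums the values were 1.7 to 35.8 and 366 to 1840 CPM. Without wells of 100 CPM or more of these transcripts none of the 5 passed, and the part of tubule RNA was not tested. The levels that follow are scaled over both sets of sums together. Angpt2 averaged 393 ± 96.7 CPM at day 10 and 133 ± 29.3 CPM in healthy smooth muscle sums, and 218 ± 114 CPM and 303 ± 98.5 CPM in the other mesenchyme-gate sums (difference 2.10 ± 0.34, adjusted p = 0.031). Cpe, carboxypeptidase E, averaged 1622 ± 22.5 and 1139 ± 235 CPM in smooth muscle sums and 682 ± 76.2 and 1278 ± 171 CPM in the others (1.42 ± 0.23, adjusted p = 0.031). Cst3, the protease inhibitor cystatin C, averaged 943 ± 163 and 839 ± 129 CPM against 845 ± 113 and 1828 ± 573 CPM (1.24 ± 0.18, adjusted p = 0.020). Pdpn (podoplanin) was at 6.08 ± 6.60 CPM at day 10 and 0.0749 ± 0.0502 CPM in healthy smooth muscle sums, and at 124 ± 21.4 and 98.6 ± 66.6 CPM in the others.

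The make-up of the other wells changed between conditions. At day 2, 80 of 210 such wells were pericyte, 41 renin and 22 fibroblast wells. At day 10 these were 34, 82 and 81 of 281 wells, and in healthy kidneys 80, 19 and 14 of 170. A well could be both a renin and a fibroblast well, and the remaining wells were given no class. The part of this make-up in the differences was not tested. Against pericyte wells alone, an alternative chosen after the data were seen, 0 genes passed at either time. Without number 1, 2, 3 or 4 the count for day 10 was 3, 3, 2 and 1, and Gpx3 was called in each of these, while Angpt2 and Cst3 were called in none.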

How the data were processed

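Single cells sorted from mouse kidneys into a mesenchyme and an endothelia gate were sequenced in 6 plates of Smart-seq2 libraries. The authors deposited raw read counts per gene and well, with 92 ERCC spike-ins in tables of their own; per the submitters' processing notes STAR and mm10 were used. The counter, annotation, strand setting and any doublet filter are not given in the sources used here, and no doublet caller was run. Wells with at least 1000 genes and 20000 gene reads were kept, and the smooth muscle wells were chosen by the levels given in the report. Counts of wells that met the rule were summed per condition and layout number into 12 sums of at least 10 wells. Sums were tested with edgeR 4.0.16 in R 4.3.3 (quasi-likelihood, TMM, filterByExpr, adjusted p under 0.05) with the layout number as a block, since same-numbered sums come from the same plates. Deviations of same-numbered sums correlated at -0.0089 to 0.1201, so the pairing is taken from the plates and not from these values. The change was also set against that of the other mesenchyme-gate wells as an interaction. Alternatives used DESeq2 1.42.0, limma 3.58.1, other scalings, filters, thresholds and left-out sums. Genes are named as the called genes that changed most, up to 10 a direction (8 for differences between classes), if they averaged 4 or more in log2 CPM and had the same sign for every number, and as the 2 to 4 list members of smallest p. Others named, such as Sbno2, were chosen after their values were seen. Members, gene lists and tests were chosen with earlier results of these data known. The scripts were tested on simulated data. Depths and marker levels stand in the report. Results for some genes are not reported here.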

Additional observations from a re-analysis of the deposited data

Results flagged for a closer look

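Among 120 groups of 4 sums examined for named genes, 13 held a sum far from the others (gap over range above Dixon's 95% value). Chance exceeds this value in about 1 in 20 groups of normally distributed values, a rate that does not hold for counts near 0. Where all other sums are at 0, any read gives a flag. That was so for Serpina3n, Kcns3, Bcl3 and Scara3 in healthy sums and Fxyd2 at day 10. In healthy sums, number 4 was the one apart for Serpina3n (0.0944 CPM, the others at 0), Kcns3 (0.0472, others 0), Bcl3 (0.0944, others 0), Timp1 (6.65, others 0.233 to 0.796) and Scara3 (6.51, others 0). Number 2 was apart in healthy sums for Shroom3 (0.620, others 0 to 0.0472), Spp1 (164, others 6.05 to 25.7) and Pdpn (0, others 0.0864 to 0.0995). At day 2 the sum apart was number 1 for Fgl2 (455 CPM, others 335 to 350), number 2 for Angpt2 (241, others 149 to 151) and number 4 for Scara3 (9.65, others 0 to 0.681). At day 10 it was number 3 for Fxyd2 (0.275 CPM, others 0) and number 2 for Cpe (1516, others 1577 to 1587).

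The day 10 change differed between smooth muscle wells and the other mesenchyme-gate wells, by edgeR's test of the difference itself, for Pdpn (5.61 log2), Angpt2 (2.10), Cpe (1.42), Cst3 (1.24) and the tubule transcript Gpx3 (-6.17). Pdpn rested on 195 reads in 7 smooth muscle wells at day 10, 24 reads at day 2 and 5 reads in healthy kidneys.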

How the results depend on the processing

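At day 2 the count of 68 genes was 142 with sums per plate, 112 with no limit on Ren1, 4 without wells that held tubule transcripts, 395 with DESeq2, 188 with limma on wells weighted the same, and 15 to 35 with 1 number left out. At day 10 the count of 72 was 150, 116, 3, 569, 278 and 12 to 35 under the same settings. Between day 10 and day 2 the count of 1 was 5, 2, 0, 127, 5 and 1 to 3, and 4 with no filter on low counts. For the difference of the day 2 change the count of 0 was 1 with sums per plate, 1 without tubule wells and 0 to 1 with a number left out. For the day 10 difference the count of 5 was 11 with sums per plate, 13 with no filter, 1 with Acta2 of at least 20000 CPM, 1 without tubule wells (none of the 5), 1 to 3 with a number left out and 0 against pericyte wells only, which was chosen after seeing the data. Without the replicate block the counts were 58, 69, 1, 0 and 3, and 49 of the 68 day 2 genes and 55 of the 72 day 10 genes were among them. The direction reversed for Itih4 between day 10 and day 2 without number 4 (-0.12, and up to 0.43 with another number left out), for its day 10 difference with no limit on Ren1 (0.33), for its day 2 difference without number 4 (0.59, and down to -1.22 with another left out), and for Pdpn's day 10 difference without tubule wells (-4.75), and the cause was not tested. Of 75 calls on named genes, 75 held with RLE size factors, 75 with no filter, 74 with Acta2 of at least 5000 CPM, 59 with Acta2 of at least 20000 CPM, 56 without the block, 4 of 74 without tubule wells and 0 of 5 against pericyte wells only. Results not called became calls in 173 of 1102 combinations of result and setting. DESeq2 and limma were run within smooth muscle wells only. Sums per plate split numbers 1 and 4 over their plates. If a number marks a mouse, the counts with sums per plate treat parts of 1 mouse as separate replicates. Few wells at day 10 (10 in number 3) and healthy levels of 0 to 3 reads limit single folds.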
